A study of Homo sapiens with 10 samples.

Results

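APAF1, CASP9, CYCS, DIABLO, HTRA2, XIAP, BIRC2 and BIRC3 encode the proteins through which factors released from mitochondria switch on caspases. The 8 genes were chosen by symbol and grouped by role into 3 apoptosome genes, 2 genes of IAP antagonists and 3 genes of inhibitor of apoptosis proteins (IAPs). All 8 were found among the 63677 gene identifiers counted in each library, and all 8 passed the filter on low counts.

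When BAX and BAK open the outer mitochondrial membrane, cytochrome c (CYCS) reaches the cytosol and binds APAF1, which assembles into the apoptosome, the platform on which the initiator caspase encoded by CASP9 becomes active. XIAP binds and blocks this caspase and executioner caspases, while the cIAP proteins encoded by BIRC2 and BIRC3 are ubiquitin ligases that act mainly on RIPK1 and NF-kB signaling. SMAC (DIABLO) and HTRA2 leave the mitochondria together with cytochrome c and displace IAPs from caspases.

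The cells were RS4;11, an established line of B cell precursor acute lymphoblastic leukemia, and venetoclax (VEN) is an inhibitor of BCL-2, which acts before these proteins in the pathway. From this parental line, 5 VENins lines had been grown under stepwise raised VEN, and 5 VENsens lines had been grown with the solvent DMSO. The VENins lines were kept under continuous VEN, which was washed out before analyses, and the VENsens lines were kept without it. Each separately grown line gave 1 poly(A) RNA library. Counts on genes ranged from 20631907 to 28323643 per VENsens library (median 24010870) and from 21145316 to 25394653 per VENins library (median 24611645).

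The libraries carried the RNA of pro-B cells. Levels are given as CPM, the read count scaled to sequencing depth, with library sizes adjusted by TMM. Of 11 pro-B marker genes, 10 had a mean of at least 1 CPM, their summed level was 2955 to 3308 CPM per library, and PAX5 was the most abundant with a mean of 707 CPM. CD34 was under 1 CPM. All 4 T-cell markers were under 1 CPM, with a summed level of 0.692 to 1.08 CPM and CD3E highest at 0.859 CPM. The 4 erythroid markers summed to at most 0.130 CPM, with HBA1 at 0 in every library. Of the 5 myeloid markers, CSF1R alone exceeded 1 CPM, with a mean of 9.51 CPM, and the list summed to 7.51 to 12.7 CPM. The 4 stromal and epithelial markers summed to 13.2 to 19.0 CPM, with PDGFRB highest at 13.9 CPM and EPCAM at 0. PAX5 was the 1 marker past the threshold, an adjusted p under 0.05. It averaged 783 ± 42.9 CPM over the 5 VENsens lines and 631 ± 34.7 CPM (SD) over the 5 VENins lines, with 5 of 5 VENins lines below all VENsens lines, and its log2 fold change (VENins over VENsens, as throughout) was -0.31 with an adjusted p of 0.0272 in edgeR's quasi-likelihood test with Benjamini-Hochberg adjustment.

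Comparing VENins with VENsens lines asks whether the RNA of this machinery differs in cells that no longer respond to VEN. Acquired insensitivity and the continued exposure to VEN go together in this design and cannot be told apart. In edgeR's quasi-likelihood test with Benjamini-Hochberg adjustment over all 16756 tested genes, 0 of 8 had an adjusted p under 0.05, where 33 of all tested genes (0.197%) did. DESeq2 gave an adjusted p to 7 of the 8, all but BIRC3, and called 0 of 7 with the line number in the model, against 1.69% of all genes given one, and 0 of 7 without it, against 6.05%. At an unadjusted p under 0.05 edgeR gave 2 of 8, CYCS and APAF1, against 16.2% of all tested genes, which sets no pattern of the 8 apart from the background. The CPM ranges of the groups were separate in 0 of 8 genes, against 4.66% of all tested genes. The 8 genes lay on both sides of zero, 3 higher and 5 lower, with a median log2 fold change of -0.05 beside 0.00 for all tested genes. A p that misses the threshold does not show that levels did not differ, but the intervals bound the size. For the 7 genes other than BIRC3, the unadjusted 95% intervals of the fold change reached no lower than 0.809 and no higher than 1.28. In RNA of whole cultures, fewer cells with a transcript and less transcript per cell cannot be told apart.

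**Figure D1:**
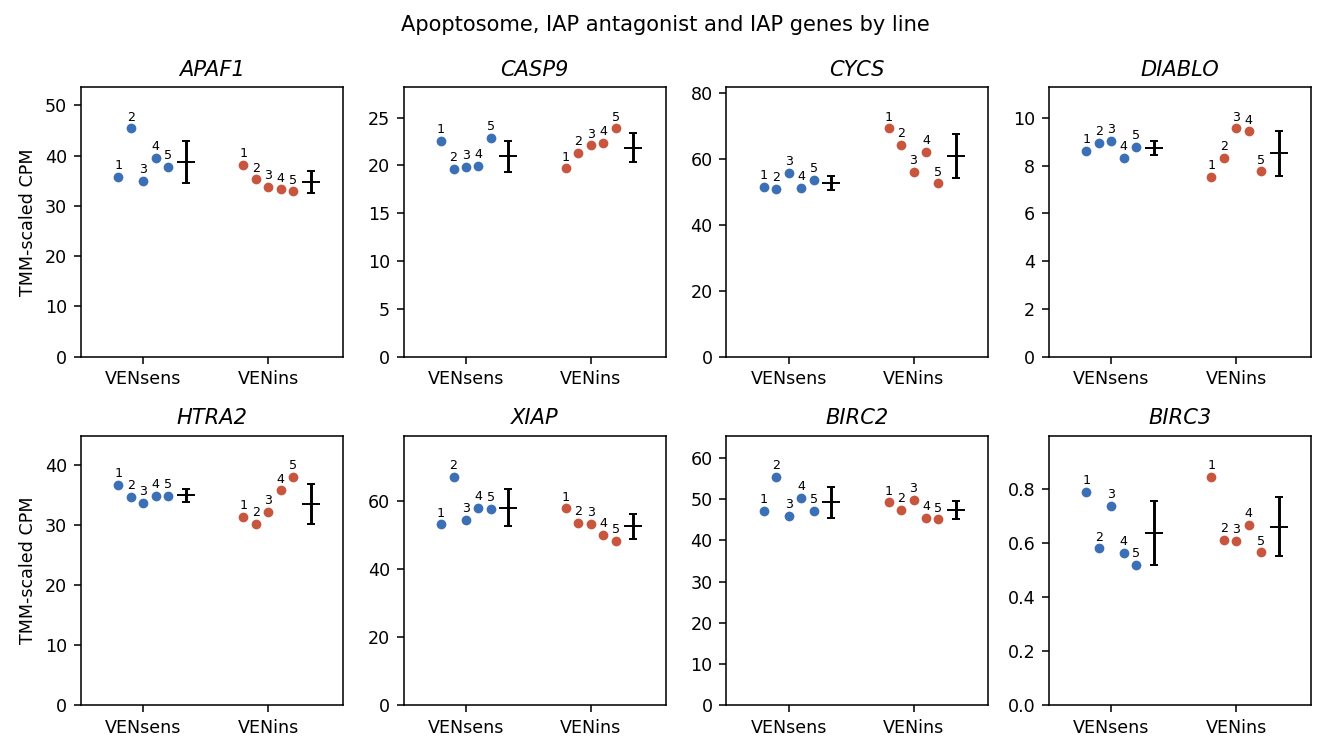
TMM-scaled CPM (vertical axes) of the 8 genes in the 5 VENsens and 5 VENins lines, with points labelled by line number and black bars for the mean and SD of each group. The groups overlap in every panel, VENsens line 2 is highest for APAF1, XIAP and BIRC2, and BIRC3 is under 1 CPM in all 10 libraries.

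Among the apoptosome genes, CYCS (ENSG00000172115) had the smallest p and the largest log2 fold change of the 8. Its levels were 51.6, 50.9, 55.9, 51.2 and 53.6 CPM in VENsens lines 1 to 5 and 69.3, 64.2, 56.0, 62.1 and 52.6 CPM in VENins lines 1 to 5. The VENsens lines lay close together, the VENins lines spread widely, and 4 of 5 VENins lines stood above every VENsens line, line 3 by a narrow margin, with line 5 inside the VENsens range. The means were 52.6 ± 2.10 and 60.8 ± 6.64 CPM (SD, n = 5 each). CYCS had a log2 fold change of 0.20 (SE 0.07, 95% interval of the fold 1.04 to 1.28). The unadjusted p was 0.0125 and the adjusted p 0.185 in edgeR's quasi-likelihood test with Benjamini-Hochberg adjustment, so it did not pass. A two-sided exact permutation test of its log2 CPM in the 10 lines, without pairing, gave p = 0.0317, where the smallest p it can give is 0.00794. Of all tested genes, which include genes with far fewer reads than CYCS, 3288 (19.6%) had a log2 fold change at least as far from zero. CYCS has processed pseudogene copies, of which the 39 found in the files held 740 counts over all libraries beside 13613 on CYCS.

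APAF1 (ENSG00000120868), the scaffold of the apoptosome, lay on the other side of zero. VENsens lines 1 to 5 had 35.7, 45.4, 34.9, 39.6 and 37.7 CPM, and VENins lines 1 to 5 had 38.2, 35.3, 33.7, 33.3 and 32.9 CPM. VENsens line 2 stood above all others, 3 VENins lines stood below all VENsens lines, and the remaining lines of both groups overlapped. The log2 fold change was -0.15 (SE 0.07, unadjusted p = 0.0495, adjusted p = 0.308 in edgeR's quasi-likelihood test with Benjamini-Hochberg adjustment), and the exact permutation test gave p = 0.0873. The log2 fold change lay between -0.22, without the lines numbered 1, and -0.10, without those numbered 2.

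CASP9 (ENSG00000132906) encodes the initiator caspase that the apoptosome activates. Its levels were 22.6, 19.6, 19.8, 19.9 and 22.9 CPM in the VENsens and 19.7, 21.3, 22.1, 22.3 and 23.9 CPM in the VENins lines. Lines 1 and 5 of VENsens lay among the upper VENins lines, and the lowest VENins line lay among the lower VENsens lines. CASP9 had a log2 fold change of 0.06 (SE 0.07, adjusted p = 0.733 in edgeR's quasi-likelihood test with Benjamini-Hochberg adjustment, exact permutation p = 0.389). With each line number left out in turn it lay between 0.04 and 0.13, highest without line 1.

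The 2 genes of IAP antagonists spread more widely among VENins than among VENsens lines, a difference in spread that was not tested. DIABLO (ENSG00000184047) had 8.61, 8.96, 9.05, 8.32 and 8.78 CPM in the VENsens and 7.52, 8.34, 9.56, 9.43 and 7.75 CPM in the VENins lines. VENins lines 1 and 5 lay below and lines 3 and 4 above all VENsens lines, and the coefficient of variation was 3.33% among VENsens and 11.0% among VENins lines. DIABLO had a log2 fold change of -0.04 (SE 0.09, adjusted p = 0.877 in edgeR's quasi-likelihood test with Benjamini-Hochberg adjustment, exact permutation p = 0.579). With each line number left out in turn it lay between -0.10, without line 4, and -0.00, without line 1. Of its exon bases, 19.3% are shared with other genes, mostly with a gene on the same strand that is listed at 0 in all 10 libraries.

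HTRA2 (ENSG00000115317), a serine protease of the intermembrane space, had 36.8, 34.7, 33.8, 35.0 and 34.9 CPM in the VENsens and 31.4, 30.3, 32.3, 35.8 and 38.1 CPM in the VENins lines. Lines 1 to 3 of VENins lay below every VENsens line and line 5 above every one, and the coefficient of variation was 3.06% among VENsens and 9.72% among VENins lines. HTRA2 had a log2 fold change of -0.07 (SE 0.07, adjusted p = 0.690 in edgeR's quasi-likelihood test with Benjamini-Hochberg adjustment, exact permutation p = 0.333). With each line number left out in turn it lay between -0.11, without line 5, and -0.02, without line 1. The library kit does not mark strand, and 36.9% of the exon bases of HTRA2 overlap LOXL3 and AUP1 on the opposite strand.

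Among the IAPs, XIAP (ENSG00000101966) is the direct inhibitor of caspases. VENsens lines 1 to 5 had 53.2, 67.1, 54.5, 58.0 and 57.6 CPM, and VENins lines 1 to 5 had 57.9, 53.5, 53.4, 50.1 and 48.2 CPM. As for APAF1, VENsens line 2 was highest, VENins lines 4 and 5 lay below all VENsens lines, and the remaining VENins lines overlapped with VENsens. XIAP had a log2 fold change of -0.14 (SE 0.07, unadjusted p = 0.0578, adjusted p = 0.329 in edgeR's quasi-likelihood test with Benjamini-Hochberg adjustment, exact permutation p = 0.103). It lay between -0.21, without the lines numbered 1, and -0.09, without those numbered 2.

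BIRC2 (ENSG00000110330), which encodes cIAP1, had 47.2, 55.4, 46.0, 50.3 and 47.2 CPM in the VENsens and 49.2, 47.3, 49.8, 45.5 and 45.1 CPM in the VENins lines. VENsens line 2 was highest, and VENins lines 4 and 5 lay just below the VENsens range. BIRC2 had a log2 fold change of -0.05 (SE 0.06, adjusted p = 0.734 in edgeR's quasi-likelihood test with Benjamini-Hochberg adjustment, exact permutation p = 0.405). It lay between -0.10 and -0.01 with each line number left out in turn, nearest zero without line 2.

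BIRC3 (ENSG00000023445), which encodes cIAP2, was near the floor of detection in every line. The VENsens libraries held 19, 12, 21, 13 and 13 reads on it and the VENins libraries 18, 15, 15, 17 and 13. This made 0.790, 0.581, 0.740, 0.563 and 0.519 CPM in the VENsens and 0.846, 0.613, 0.610, 0.668 and 0.566 CPM in the VENins lines. Line 1 was highest in both groups, and the ranges overlapped almost fully. The total was 78 reads in each group, with an exact 95% Poisson interval of 61.7 to 97.3 that covers counting error only. BIRC3 had a log2 fold change of 0.04 (SE 0.23, adjusted p = 0.954 in edgeR's quasi-likelihood test with Benjamini-Hochberg adjustment, exact permutation p = 0.754). Folds between 0.738 and 1.44 are not excluded by its 95% interval.

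BIRC3 and BIRC2 are neighbours on the plus strand of chromosome 11, at chr11:102317450-102339403 and chr11:102347211-102378670 (GRCh38, GENCODE 29), with 7807 bases between them. Per kilobase of merged exons, the level of BIRC2 was 99.1 to 158 times that of BIRC3 in VENsens and 96.5 to 135 times in VENins lines, ranges that overlapped. Of the 7 other genes nearby with a value in the files, TMEM123 was well expressed at a mean of 542 ± 51.5 CPM over the 5 VENsens and 525 ± 29.6 CPM (SD) over the 5 VENins lines. YAP1, MMP7, CFAP300, CEP126, ANGPTL5 and TRPC6 were at 0 in all 10 libraries.

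The promoters of this pair are shown because the neighbours differ so widely in level, and that of CYCS because its difference had the smallest p of the 8. Sequences are from RefSeq (GRCh38.p14), which held all 8 genes with 16 starts, and each gives the 250 bases before the start. In BIRC3, at chr11:102317234-102317483 on the plus strand, capitals mark the 2 matches to the NF-kB consensus, searched on both strands. BIRC2, at chr11:102346964-102347213 on the plus strand, is given at the first of its 2 listed starts and holds no match there. In CYCS, at chr7:25125261-25125510 on the minus strand, capitals mark GCATGCGC, from the consensus of NRF1, a regulator of respiratory chain genes.

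BIRC3: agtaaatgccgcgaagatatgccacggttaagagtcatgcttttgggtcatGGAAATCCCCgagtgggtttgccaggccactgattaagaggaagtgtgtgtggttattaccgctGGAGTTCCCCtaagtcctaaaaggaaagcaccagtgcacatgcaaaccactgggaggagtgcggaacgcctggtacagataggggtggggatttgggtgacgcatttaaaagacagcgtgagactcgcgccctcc

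BIRC2: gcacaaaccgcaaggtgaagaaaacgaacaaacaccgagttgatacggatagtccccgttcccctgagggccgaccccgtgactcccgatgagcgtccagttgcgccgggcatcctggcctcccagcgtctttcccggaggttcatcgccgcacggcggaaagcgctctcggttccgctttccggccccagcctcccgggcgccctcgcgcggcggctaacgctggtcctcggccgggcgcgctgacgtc

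CYCS: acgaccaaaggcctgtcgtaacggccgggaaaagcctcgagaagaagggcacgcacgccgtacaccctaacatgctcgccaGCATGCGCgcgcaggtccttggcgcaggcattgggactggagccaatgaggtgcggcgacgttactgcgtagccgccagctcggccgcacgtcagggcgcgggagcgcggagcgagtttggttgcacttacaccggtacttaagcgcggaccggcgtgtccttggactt

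The NF-kB consensus had at least 1 match in 12.3% and at least 2 in 2.03% of the 35116 promoter windows of this length, and among the 8 genes HTRA2 also held 1, at 1 of its 2 starts. GCATGCGC was present on either strand in 2.63% of all windows and, among the 8 genes, in CYCS alone, 169 bases before the start. The BIRC3 window held 11 CG dinucleotides and 52.4% G and C, against 33 and 67.6% in that of BIRC2 and 31 and 64.4% in that of CYCS. The medians over all windows were 11 and 58%. GGGCGG, found in 42.6% of all windows, occurred 8 times at each of the 2 starts of CASP9 and not in the windows printed here. CCAAT, found in 32.0% of all windows, occurred 2 times in CYCS. The motifs were chosen after the sequences were read, and a match shows only that the letters are there.

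Levels of different genes are compared as CPM per kilobase of merged exons. Over the VENsens lines this level ran from CYCS (11.8 ± 0.470), HTRA2 (11.7 ± 0.357) and BIRC2 (10.9 ± 0.837) over XIAP (6.43 ± 0.604), APAF1 (4.89 ± 0.530), CASP9 (3.98 ± 0.305) and DIABLO (1.29 ± 0.0430) to BIRC3 (0.0850 ± 0.0158; SD, n = 5). The ranges of CYCS and HTRA2 overlapped, as did those of HTRA2 and BIRC2, while the later neighbours in this order were separate. VENins lines had the same order, with 13.6 ± 1.49 for CYCS and 0.0879 ± 0.0146 for BIRC3, and there APAF1 (4.39 ± 0.276) and CASP9 (4.15 ± 0.290) overlapped too. Of the summed level per kilobase of the 3 IAPs, BIRC2 made up 62.5% ± 0.740 and 63.9% ± 0.954, XIAP 37.0% ± 0.816 and 35.6% ± 0.896, and BIRC3 0.494% ± 0.118 and 0.536% ± 0.0714 in VENsens and VENins lines. With the length counted over exon bases that no other gene covers, HTRA2 took the place of CYCS at the top. The ranges of XIAP and APAF1 then overlapped in VENsens lines. With the longest transcript as length, XIAP overlapped with APAF1 and APAF1 with CASP9 in VENsens lines.

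**Figure D2:**
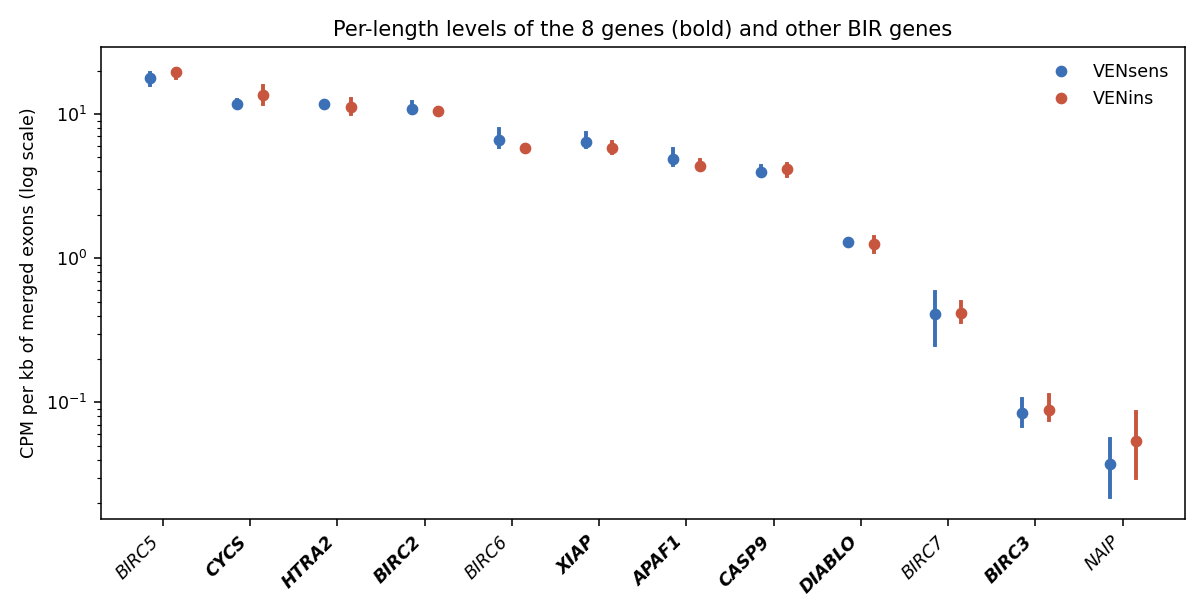
CPM per kilobase of merged exons (log axis) of the 8 genes and other BIR genes, with points for group means and bars from the lowest to the highest of 5 lines. BIRC5 stands highest, and BIRC3 lies far below XIAP and BIRC2 in both groups.

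The other genes with a BIR domain, the fold that defines IAPs, differed widely in level. BIRC5 (survivin, a mitotic protein) had 17.8 ± 1.57 CPM per kilobase over the VENsens and 19.7 ± 1.05 over the VENins lines, and BIRC6, a giant ubiquitin-conjugating IAP, had 6.66 ± 0.768 and 5.83 ± 0.206. BIRC7 was at 0.408 ± 0.127 and 0.413 ± 0.0525, NAIP at 0.0373 ± 0.0151 and 0.0542 ± 0.0230, and BIRC8 had no read in any library. Of the 4 tested, 3 were higher and 1 lower, with 0 of 4 called by edgeR, 0 by DESeq2 of the 2 it gave an adjusted p, and 2 of 4 at an unadjusted p under 0.05 in edgeR, where 16.2% of all tested genes had one. BIRC6 ranged from 106 to 142 CPM in VENsens and from 100.2 to 109 CPM in VENins lines, with 3 VENins lines below all VENsens lines and VENsens line 2 again highest. Its log2 fold change was -0.19 (SE 0.07, adjusted p = 0.190 in edgeR's quasi-likelihood test with Benjamini-Hochberg adjustment), and -0.11 without the lines numbered 2. For BIRC5, 4 of 5 VENins lines lay above all VENsens lines, with a log2 fold change of 0.15 (SE 0.07, adjusted p = 0.303 in the same edgeR test) and one of 0.09 without the lines numbered 1.

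CASP6, which acts after the initiator caspases, had a log2 fold change of -0.04 (SE 0.09, adjusted p = 0.867 in edgeR's quasi-likelihood test with Benjamini-Hochberg adjustment), smaller than its SE. Of 5 other initiator and inflammatory caspases tested, 1 was higher and 4 lower. CASP4, an inflammatory caspase, had 3 VENins lines above all VENsens lines and a log2 fold change of 0.09 (edgeR adjusted p = 0.413), and the next smallest p was that of CASP10, an initiator of the death-receptor route, at -0.08 (edgeR adjusted p = 0.582).

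Over all context lists, 74 of 87 genes with a value in the files were tested, 37 were higher and 37 lower, and the median log2 fold change was -0.00. EdgeR called 0 of 74, with 11 (14.9%) at an unadjusted p under 0.05, near the 16.2% of all tested genes. DESeq2 gave an adjusted p to 71 of the 74 and called 0 of 71 with and without the line number, against 1.69% and 6.05% of all genes given one. Among death-receptor components, 3 of 7 were higher and 4 lower. TNFRSF10B, the TRAIL receptor DR5, ranged from 48.8 to 56.8 CPM in VENsens and from 53.2 to 62.6 CPM in VENins lines. In 3 VENins lines it lay above all VENsens lines, with overlapping ranges, at a log2 fold change of 0.16 (SE 0.06, adjusted p = 0.188 in edgeR's quasi-likelihood test with Benjamini-Hochberg adjustment). CFLAR, which encodes the caspase-8 inhibitor FLIP, was at -0.12 (edgeR adjusted p = 0.371).

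Of 7 other genes of mitochondrial proteins, not all of them released factors, 4 were higher and 3 lower. ENDOG, a mitochondrial nuclease, had 9.52, 6.69, 8.17, 7.89 and 8.10 CPM in the VENsens and 9.07, 9.11, 8.75, 9.63 and 14.9 CPM in the VENins lines. Line 5 of VENins stood far above the rest and line 4 just above VENsens line 1, while the other 3 VENins lines lay between VENsens line 1 and the remaining VENsens lines. The log2 fold change of ENDOG was 0.33 (SE 0.12, adjusted p = 0.194 in edgeR's quasi-likelihood test with Benjamini-Hochberg adjustment), and 0.19 without the lines numbered 5. That of PGAM5, a mitochondrial phosphatase, was 0.11 (edgeR adjusted p = 0.368). Among 13 tested modulators of the apoptosome and of IAPs, 9 were higher and 4 lower, with the smallest p for CARD8 at a log2 fold change of -0.13 (edgeR adjusted p = 0.273) and for the chaperone gene HSP90AA1 at 0.11 (edgeR adjusted p = 0.309). Without the lines numbered 2 the value for CARD8 was -0.09, and without those numbered 1 that for HSP90AA1 was 0.07. Of 12 caspase substrates, 4 were higher and 8 lower, with PARP1, a nuclear DNA repair enzyme, at -0.08 (edgeR adjusted p = 0.407) and ROCK1, a kinase of membrane blebbing, at -0.13 (edgeR adjusted p = 0.412), or between -0.22 and -0.07 with each line number left out.

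Of 11 partners of cIAPs and genes of noncanonical NF-kB signaling, 6 were higher and 5 lower. CYLD, a deubiquitinase that counteracts cIAP signaling, had the smallest p of all context genes. Its levels were 30.1, 37.1, 29.1, 29.5 and 30.5 CPM in the VENsens and 29.4, 28.9, 24.7, 24.5 and 26.7 CPM in the VENins lines. In 4 VENins lines it lay below all VENsens lines, at a log2 fold change of -0.22 (SE 0.07, adjusted p = 0.147 in edgeR's quasi-likelihood test with Benjamini-Hochberg adjustment). TRAF3, which with cIAPs keeps the kinase NIK low, had 20.3, 20.9, 21.5, 17.7 and 20.3 CPM in the VENsens and 17.3, 16.3, 17.5, 21.6 and 13.9 CPM in the VENins lines. VENins lines 1, 2, 3 and 5 lay below and line 4 above all VENsens lines, and the log2 fold change was -0.23 (SE 0.10, adjusted p = 0.280 in the same edgeR test). Without the lines numbered 4 the value for TRAF3 was -0.36 with an edgeR adjusted p of 0.0467, and without those numbered 5 it was -0.15 with one of 0.502, in a range of 0.0467 to 0.679 over all alternatives.

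NF-kB target genes, a class that includes BIRC3, were tested for 11 of 14, and 6 were higher and 5 lower with a median log2 fold change of 0.05. In edgeR, 4 of 11 had an unadjusted p under 0.05, 1 higher and 3 lower, where 16.2% of all tested genes had one. The list was not tested as a set. REL, a subunit of NF-kB, ranged from 5.11 to 8.04 CPM in VENsens and from 3.31 to 5.59 CPM in VENins lines, with 3 VENins lines below all VENsens lines and VENsens line 2 highest. REL had a log2 fold change of -0.45 (SE 0.15, adjusted p = 0.180 in edgeR's quasi-likelihood test with Benjamini-Hochberg adjustment) and one of -0.25 without the lines numbered 2. With no filter on low counts its edgeR adjusted p was 0.0117, in a range of 0.0117 to 0.626 over all alternatives. TNFAIP3 (A20, a feedback inhibitor of NF-kB) was at -0.27 (SE 0.10, edgeR adjusted p = 0.193), with 4 VENins lines below all VENsens lines. TNF had no read in any library.

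**Figure D3:**
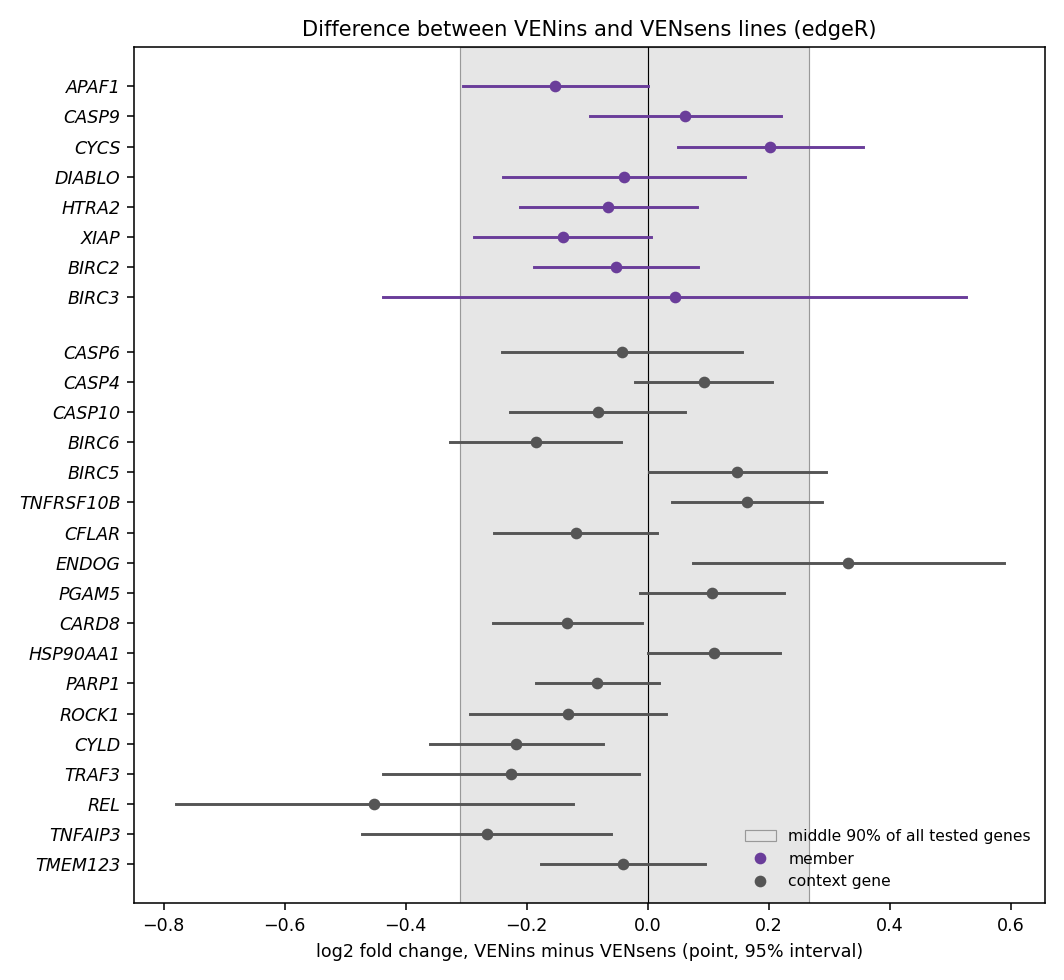
Log2 fold change (VENins over VENsens, horizontal axis) of the 8 genes and the named context genes, with points for the estimate and bars for its unadjusted 95% interval from edgeR. The grey band holds the middle 90% of tested genes of any read count, from -0.31 to 0.27. The points of all 8 members lie within it, and BIRC3 has the widest interval of the 8.

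Across the 10 libraries the levels of APAF1, XIAP and BIRC2 went together. Pearson's r of log2 CPM was 0.966 for APAF1 with XIAP, 0.885 for XIAP with BIRC2 and 0.867 for APAF1 with BIRC2, and without VENsens line 2 it was 0.920, 0.719 and 0.649. The lowest r were -0.707 for CASP9 with XIAP and -0.685 for CYCS with HTRA2. These values describe 28 pairs of genes over libraries that share their depth scaling.

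**Figure D4:**
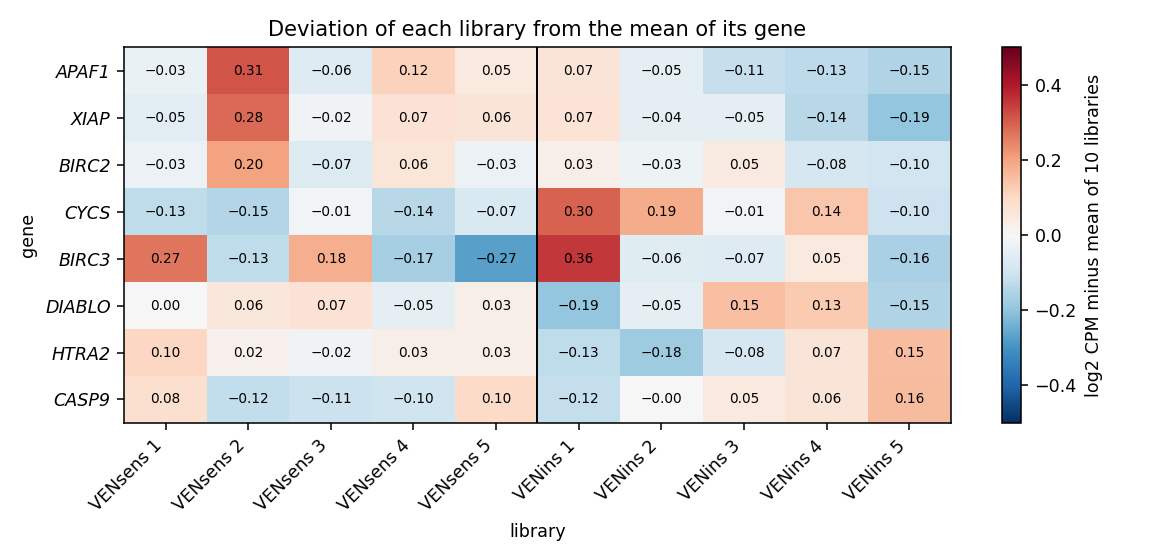
Log2 CPM of each of the 8 genes in each of the 10 libraries minus the gene's mean over the libraries, in color and in numbers. VENsens line 2 has the highest values of APAF1 (0.31), XIAP (0.28) and BIRC2 (0.20), and VENins line 1 has the highest values of CYCS (0.30) and BIRC3 (0.36).

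Gene length moved with these values. Tested protein-coding genes were sorted by merged exon length into 5 bins of like size. In VENsens line 2, the bin of the longest genes had a median deviation of 0.11 (log2) from the mean of the 10 libraries and that of the shortest genes one of -0.11, and in VENins line 5 these were -0.07 and 0.10. Between the groups, the median log2 fold change ran from 0.07 in the bin of the shortest genes, with 72.4% of genes higher in VENins, to -0.07 in that of the longest, with 29.4% higher. Without the lines numbered 2 these medians were 0.05 and -0.04. XIAP, with 9025 exon bases among the longest genes, lay near the lower quartile of its bin, -0.15, and APAF1, with 7908 bases, lay below that of its bin, -0.11. CYCS, with 4457 bases, lay above the upper quartile of its bin, 0.07. HTRA2, with 3001 bases, lay just below the lower quartile of its bin, -0.05. BIRC3, with 7518 bases and few reads, lay just above the upper quartile of its bin, 0.04. The part of length in the differences was not tested.

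**Figure D5:**
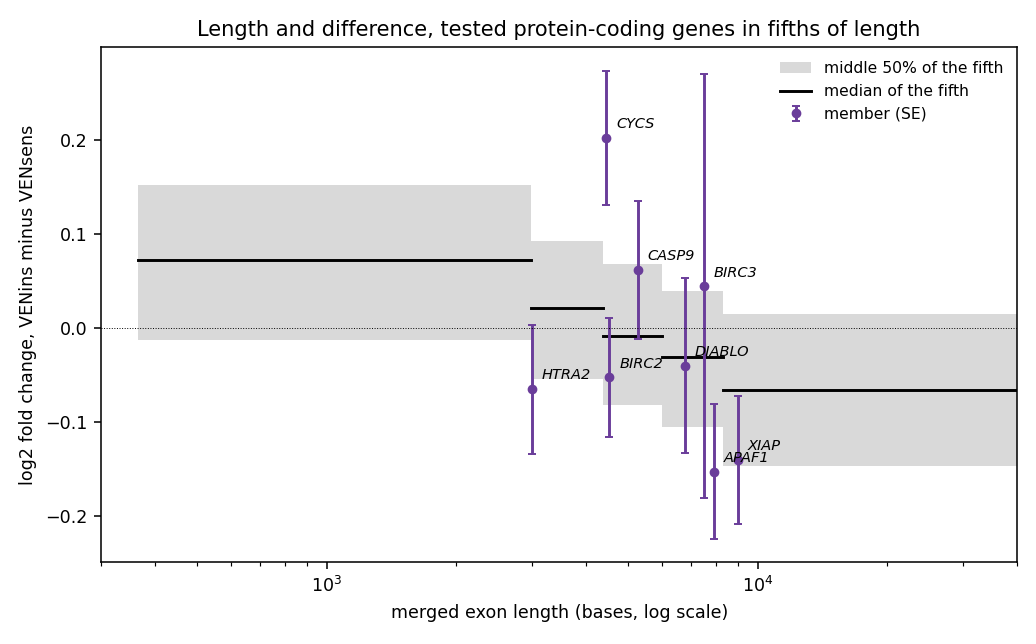
Log2 fold change (VENins over VENsens) against merged exon length (log axis, ending before the longest genes), with the median and middle 50% of each bin of tested protein-coding genes and points for the 8 genes with their SE. The medians run from 0.07 to -0.07, with APAF1 and HTRA2 below and CYCS and BIRC3 above the middle 50% of their bins.

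Among 11138 protein-coding genes compared over the 10 libraries, the 3 most like APAF1 by Pearson's r of log2 CPM were PANK3 (0.987), PCYOX1 (0.978) and CEP97 (0.968). CEP97 was also closest to XIAP (0.994), followed by ATRX (0.984) and UHMK1 (0.983). BIRC2 was most like PRKCI (0.967), WDR47 (0.954) and SENP7 (0.950). CYCS was most like ECHDC1 (0.947), SRSF1 (0.947) and ZBTB2 (0.941). For CASP9 the 3 were ALAD (0.938), ETHE1 (0.925) and DHX35 (0.913). HTRA2 came closest to POLG (0.964), LTBP3 (0.961) and ZNF696 (0.956). DIABLO came closest to KHDRBS1 (0.952), UACA (0.929) and RSL1D1 (0.918). For BIRC3, with its few reads, the highest r were lower, at 0.915 for NEB, 0.856 for EID2B and 0.846 for ZNF30. The highest r among so many genes is large by selection.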

How the data were processed

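Counts of 10 RS4;11 libraries, 5 VENsens and 5 VENins, were used as the authors deposited them: whole numbers of single-end reads per Ensembl gene identifier. The submitters' notes name bcl2fastq 2.20.0.422, Bowtie2 2.3.5.1, SAMtools 1.9 and HTSeq 0.9.1 with hg19 (GRCh37), and the annotation release is not given in the sources used here. Not on genes were 45.8% to 47.3% of reads, among them 24.6% to 26.2% with low alignment quality, 3.69% to 3.98% on several genes and 7.29% to 7.78% outside genes. Counting was taken to ignore strand.

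Names and lengths came from GENCODE 29 (GRCh38) and covered 52526 of 63677 identifiers, with 0.907% of counts on unnamed ones. R 4.3.3 was used with edgeR 4.0.16 (limma 3.58.1): filterByExpr (minimum count 10, minimum total 15), TMM, and the quasi-likelihood test on the line number and the condition, since the study describes a paired analysis. Benjamini-Hochberg adjustment covered every tested gene, at a threshold of 0.05. DESeq2 1.42.0 was an alternative. Log2 CPM used a prior count of 2, and SEs came from the F statistic. Exact permutation tests compared mean log2 CPM of 5 and 5 lines. Python 3.11.15 wrote the tables. The steps were tested on simulated counts. Replicates are separately grown lines from one parental line.

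Members and lists were chosen with earlier results of these data known. The text names every member, in each context list the genes with an adjusted p under 0.05 or else at most the 2 with the smallest p, and for each member the 3 genes with the highest r. BIRC7, NAIP, BIRC8, TNF and the silent neighbours of BIRC2 and BIRC3 are named for their level, chosen after values were seen, and others as markers. Of 91 context symbols, 87 were found. CCL3, CCL4, C11orf70, KIAA1377 and the marker TRAC were not found under these names.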

Additional observations from a re-analysis of the deposited data

Results flagged for a closer look

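In 54 groups of 5 lines (the 8 members and 19 context genes, in VENsens and in VENins), the gap of the highest or lowest line to its nearest neighbour was compared with the range of the group. It exceeded Dixon's critical value in 4 groups, where chance gives about 1 in 20, or 2.7 groups, and in 0 groups of the members. ENDOG had 14.9 CPM in VENins line 5, where the other VENins lines lay between 8.75 and 9.63 CPM. CASP6 had 20.3 CPM in VENins line 2, where the others reached at most 16.5 CPM. In VENsens line 2, CYLD had 37.1 CPM, against 29.1 to 30.5 CPM in the other VENsens lines, and PGAM5 had 65.8 CPM, against 75.8 to 78.3 CPM.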

How the results depend on the processing

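Members called were 0 under all 12 alternatives, where DESeq2 gave no adjusted p to BIRC3. Of 97 member values under the alternatives, 96 kept their direction, of which 94 also kept their side of the threshold and 2, BIRC3 in DESeq2, had no adjusted p. The exception was BIRC3, whose log2 fold change was -0.00405 without the lines numbered 4 and ran to 0.14 with other lines left out. The smallest adjusted p of a member was 0.0579, for CYCS in DESeq2 without the line number, in a range up to 0.606 over its alternatives. With a line number left out, the log2 fold change of CYCS lay between 0.15 and 0.26.

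Genes called over all tested genes were 33 in edgeR when the line number was a block, as reported, and 149 with no block. No shared effect of the line number was visible. Deviations of same-numbered lines correlated at -0.103 to 0.028, and 0 of 5 VENsens lines correlated best with the VENins line of its own number. These values cannot show whether same-numbered lines were handled as pairs. DESeq2 gave 217 calls with a block and 739 with none, no filter on low counts gave 664, and leaving out a line number gave 6 (line 2) to 331 (line 4).

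Context genes called were 1 with no filter (REL) and 0 to 1 with a line number left out (TRAF3 without line 4). Of 228 values of context genes, 223 kept direction and side. CASP6 was at 0.03 without line 4, in a range of -0.15 to 0.03, and TMEM123 at 0.00814 without line 2 and 0.00158 without line 5, in a range of -0.10 to 0.00814. In the order of levels over all 10 lines, 2 members, CYCS and HTRA2, changed rank with the longest transcript as length, which held within VENsens but not within VENins lines, and 2 with unshared exon bases, in both groups, a length chosen after seeing the data. The cause was not tested. BIRC3 rests on 12 to 21 reads per library.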

Other observations

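The ratio of the levels per kilobase of CYCS and APAF1, chosen after their values were seen, is given as a description. It was 1.99 to 2.84 in VENsens lines (mean 2.44 ± 0.318) and 2.84 to 3.31 in VENins lines (mean 3.11 ± 0.204; SD, n = 5), ranges that just overlapped at VENsens line 3 and VENins line 5.

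RNA levels do not give protein levels, release from mitochondria or caspase activity, and all lines came from one cell line. Gene lengths are those of GENCODE 29, not of the transcripts that RS4;11 cells use.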
